A study of Canis lupus with 24 samples.

Results

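The genes described here are 10 markers that are widely used to recognise cancer stem cells and pluripotent cells, namely PROM1, CD44, SOX2, KLF4, MYC, POU5F1, NANOG, BMI1, LGR5 and SOX9. They were chosen by name, with earlier results of these data known. The platform annotation gave an array feature under the symbol of 9 of the 10, out of 16295 genes measured. No feature carried POU5F1 as its only symbol, and that gene was not analysed here. Each of the other 9 markers was measured by 1 feature.

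Expression had been measured in K9TCC, a line grown from a bladder transitional cell carcinoma of a dog, in 8 groups of 3 samples, 24 arrays in all (Affymetrix, Canine Gene 1.1 ST). Sphere cultures and adherent cultures each received 50 µM mavacoxib, a COX-2 inhibitor of veterinary medicine, or its vehicle DMSO (0 µM mavacoxib) for 24 hours, or stood for 48 hours after transfection, either with siRNA against COX-2 or with a negative control siRNA. The spheres, which the labels call cancer stem cell spheres, were kept for at least 5 passages in serum-free N2 medium with EGF and bFGF on ultralow attachment plates, per the growth protocol. The series' design text instead says that spheres formed under anchorage-dependent growth, and the sources used here do not settle which holds. The adherent cells were kept in DMEM-F-12 with fetal bovine serum, so culture form and medium cannot be told apart. All groups were the same line. Per the labels' treatment protocol, sphere cells meant for siRNA were also seeded in anchorage-dependent conditions on the day before Lipofectamine RNAiMAX transfection. The negative siRNA and DMSO groups therefore differ in transfection, siRNA, time and, for spheres, attachment at seeding.

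In stem cell biology these genes stand for several roles. PROM1 (the antigen prominin-1), CD44 (the main hyaluronan receptor) and LGR5 (a receptor for R-spondins that strengthens Wnt signalling) are surface proteins by which stem-like cells are sorted. SOX2, KLF4, MYC and POU5F1 are the transcription factors with which somatic cells are reprogrammed to pluripotency, and NANOG is a homeobox factor that holds that state. BMI1 is a subunit of polycomb repressive complex 1 that silences the CDKN2A locus in self-renewing cells, and SOX9 is a transcription factor of progenitor cells in many epithelia.

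The values are log2 signals as deposited, so a difference of 1 is a doubling of signal. Levels are compared between groups for a given gene or list mean, since probes differ in brightness. Counts of cell type genes above 4.82, the median of all values, set different probes against 1 level and are a rough guide only. Array medians lay between 4.68 and 5.02, and arrays of a group correlated at 0.981 to 0.996 over all features. There are no detection calls, so where a group lies under 4.82, the median of all values, a difference is a lower bound if that signal is background. Each array measured RNA of a whole culture, in which fewer cells expressing a gene and less RNA per cell cannot be told apart. Differences are given with their standard error (SE, 3 arrays per group) from the limma fit. That fit pools the spread of a gene over all 24 arrays, so its SE is the same for every pair of groups. The SE is thus not the spread of the arrays printed beside it. A gene rose or fell where its limma p, adjusted by Benjamini-Hochberg over all 16295 genes, was under 0.05. Whether replicate arrays stand for separate cultures is not in the labels, so p-values speak only of the variation among these samples, and that variation may be technical.

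PTGS2, which encodes COX-2 and is the gene the siRNA is named for, did not read lower than with negative siRNA where the label is COX-2 siRNA. In spheres it read 11.32, 11.51 and 11.59 in those arrays, against 10.30, 10.29 and 10.35 with negative siRNA, which was higher by 1.16 ± 0.13 (SE; adjusted p = 2.57e-07). In adherent cells it read 11.27, 11.50 and 11.20, against 11.06, 10.89 and 11.02, and the difference of 0.33 ± 0.13 was not past the threshold (adjusted p = 0.0888). The controls themselves stood apart, since PTGS2 averaged 10.31 in negative siRNA spheres and 12.11 in DMSO spheres, and 10.99 in negative siRNA adherent cells, where the DMSO adherent arrays lay between 9.50 and 9.70. The labelled COX-2 siRNA spheres, at a mean of 11.47, thus lay above the negative siRNA spheres and below the DMSO spheres, a comparison that was not tested. These groups are therefore called labelled COX-2 siRNA throughout. The cell type markers fitted an epithelial line: 5 or 6 of 6 epithelial genes lay above 4.82 in every group, 0 of 6 measured leukocyte genes did in any group, and at most 1 of 5 endothelial genes did. Of 7 fibroblast genes, 2 or 3 lay above 4.82 in sphere groups and 1 in adherent groups. The 6 urothelial genes were all above it in adherent cells, and 3 or 4 of 6 were in spheres. The measured basal epithelial genes KRT5, KRT17 and TP63 lay above it in all sphere groups and in no adherent group.

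**Figure D1:**
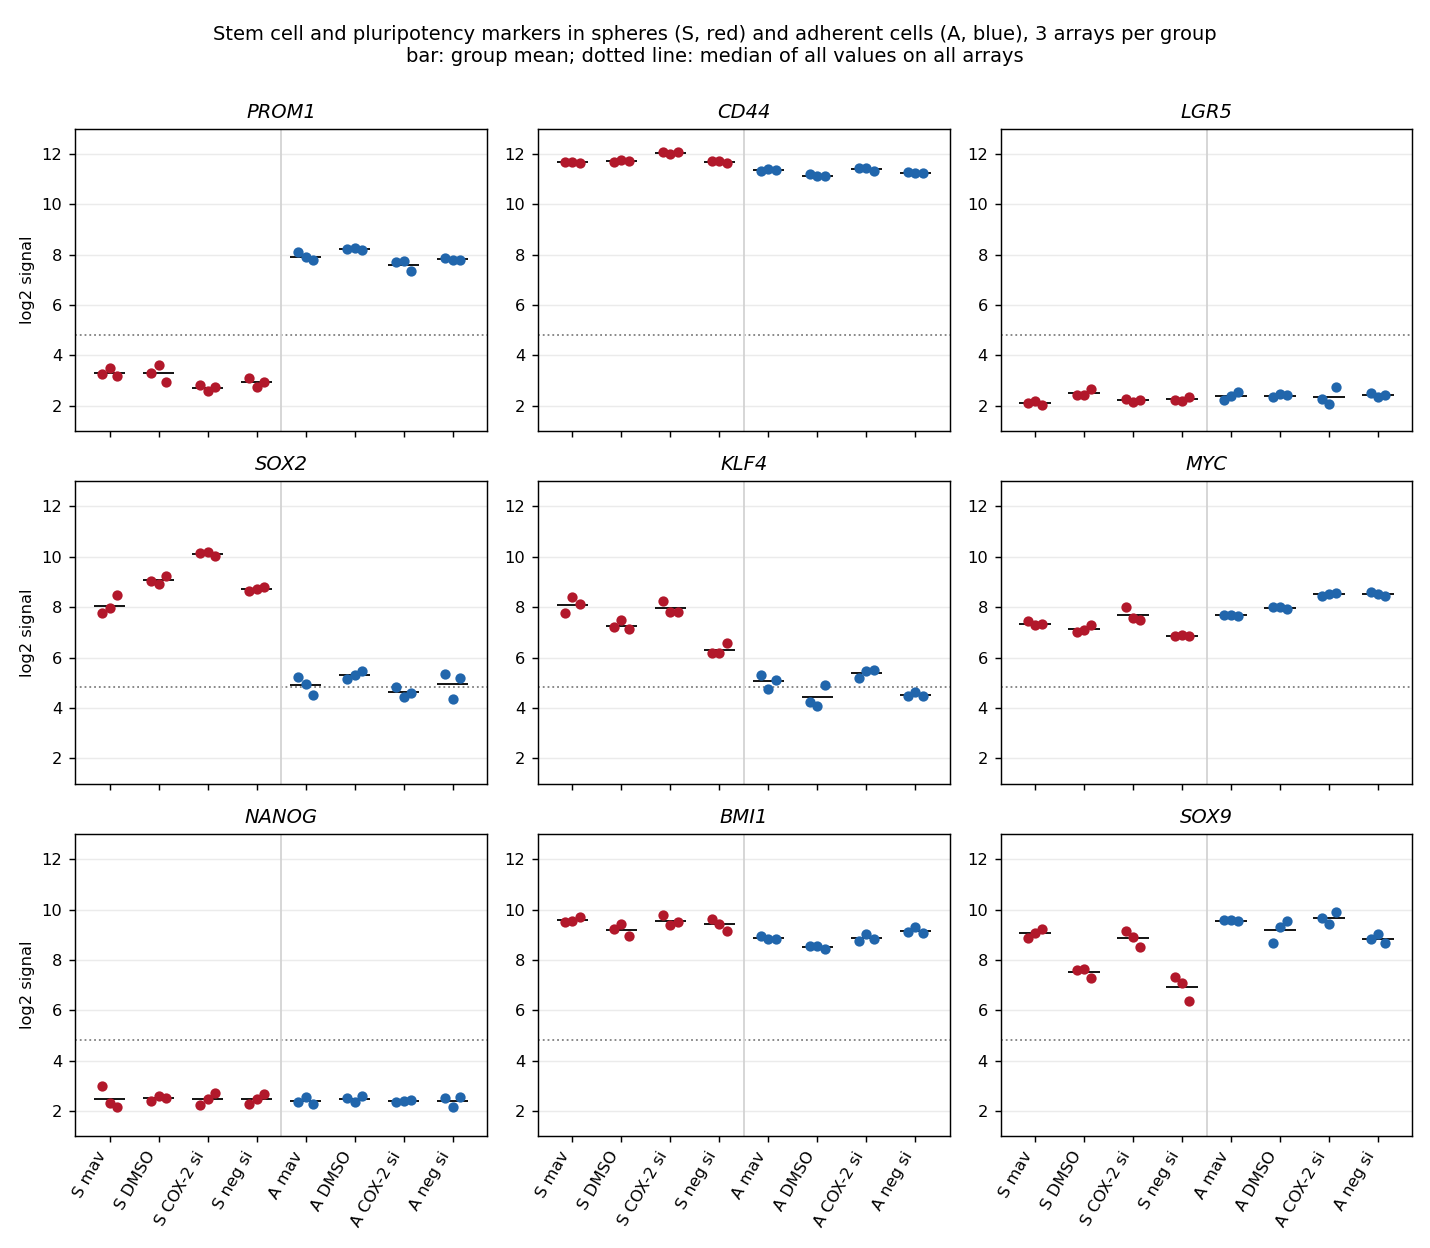
Log2 signal of the 9 measured markers (1 panel per gene) on each array, by group, with sphere groups left of adherent groups and a line at each group mean. PROM1 sphere arrays sit between 2.58 and 3.63 and adherent arrays between 7.34 and 8.28, SOX2 lies the other way round, and NANOG and LGR5 stay under 3 in all groups.

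The question of the culture comparison is which markers the spheres carry that the adherent cells do not. With DMSO, 4 markers rose in spheres (SOX2, KLF4, BMI1 and CD44), 3 fell (PROM1, SOX9 and MYC), and NANOG and LGR5 did not pass. That is 77.8% of the 9 markers, where 46.1% of all genes were called (22.8% higher and 23.3% lower). With arrays at a common median, 2804 of 8355 called genes were higher, against 3714 of 7505 with the values as deposited, and the same 7 markers were called. The markers did not move as a group: the median of their differences was 0.09, against -0.03 over all genes.

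Among the surface markers, PROM1 differed most. It read 3.29, 3.63 and 2.93 in DMSO spheres, against 8.21, 8.28 and 8.19 in DMSO adherent cells. All 3 sphere arrays lie under 4.82 and far below the adherent ones. The difference was -4.94 ± 0.15 (adjusted p = 1.53e-17), a fold of 0.0325 that is a bound if the sphere signal is background. CD44 read 11.67, 11.74 and 11.72 in DMSO spheres, against 11.19, 11.10 and 11.12 in DMSO adherent cells. The groups did not overlap, and the difference was 0.57 ± 0.08 (1.49-fold, adjusted p = 3.94e-06). LGR5 gave no signal above 4.82 on any of the 24 arrays (2.03 to 2.75), and its sphere difference with DMSO was 0.09 ± 0.13 (adjusted p = 0.623).

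Among the pluripotency factors, SOX2 and KLF4 were far higher in spheres. SOX2 read 9.03, 8.91 and 9.25 in DMSO spheres, against 5.14, 5.33 and 5.46 in DMSO adherent cells, where it was close to the median of all values. It rose by 3.75 ± 0.22 (adjusted p = 1.1e-12). KLF4, a zinc-finger factor that also acts in epithelial differentiation, read 7.21, 7.48 and 7.13 in DMSO spheres, against 4.25, 4.10 and 4.92 in DMSO adherent cells. It rose by 2.85 ± 0.20 (7.21-fold, adjusted p = 4.88e-11), and the adherent mean of 4.42 lies under 4.82. MYC, the growth-driving factor of the set, went the other way, with 7.02, 7.11 and 7.30 in DMSO spheres, against 8.01, 8.0 and 7.93 in DMSO adherent cells. The arrays did not overlap, and MYC fell by 0.84 on the log2 scale (SE 0.11, 0.56-fold, adjusted p = 1.83e-06). NANOG read 2.16 to 2.99 over all 24 arrays, and its sphere difference with DMSO was 0.02 ± 0.17 (adjusted p = 0.952).

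BMI1 read 9.23, 9.42 and 8.94 in DMSO spheres, against 8.55, 8.57 and 8.45 in DMSO adherent cells, and rose by 0.67 ± 0.14 (1.59-fold, adjusted p = 0.000271). SOX9 read 7.60, 7.65 and 7.28 in DMSO spheres, against 8.68, 9.29 and 9.54 in DMSO adherent cells. The adherent SOX9 arrays were more spread than the sphere ones but lay above all of them, and SOX9 fell by 1.66 on the log2 scale (SE 0.22, 0.316-fold, adjusted p = 1.24e-06). SOX2 and SOX9, both SOX-family factors, thus stood in opposite directions in the same spheres.

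Spheres against adherent cells in the other treatments gave each marker the sign it had with DMSO wherever it was called. Sphere cells of both siRNA treatments had been seeded in anchorage-dependent conditions, per the treatment protocol. Those contrasts therefore differ from the DMSO one in attachment at seeding as well as in treatment. With negative siRNA 6 of 9 markers passed (66.7%, where 42.7% of all genes did), with mavacoxib 6 of 9 (66.7%, where 46.8% of all genes did), and with labelled COX-2 siRNA 7 of 9 (77.8%, where 48% did). By direction, 20.5% of all genes were higher and 22.1% lower with negative siRNA, 22% and 24.8% with mavacoxib, and 22.2% and 25.8% with labelled COX-2 siRNA. At a common median, 2619 of 7671 called genes were higher with negative siRNA (3348 of 6955 as deposited), 2846 of 8235 with mavacoxib (3593 of 7633) and 2323 of 9424 with labelled COX-2 siRNA (3616 of 7818). The PROM1 difference lay between -4.94 and -4.60 in the 4 treatments. SOX2 was higher by 3.76 ± 0.22 with negative siRNA, 3.17 ± 0.22 with mavacoxib and 5.50 ± 0.22 with labelled COX-2 siRNA, the last a 45.4-fold difference. KLF4 was higher by 1.78 ± 0.20, 3.04 ± 0.20 and 2.56 ± 0.20 in those treatments. For PROM1, CD44, SOX2 and KLF4, the 12 sphere arrays and the 12 adherent arrays did not overlap whatever the treatment.

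**Figure D2:**
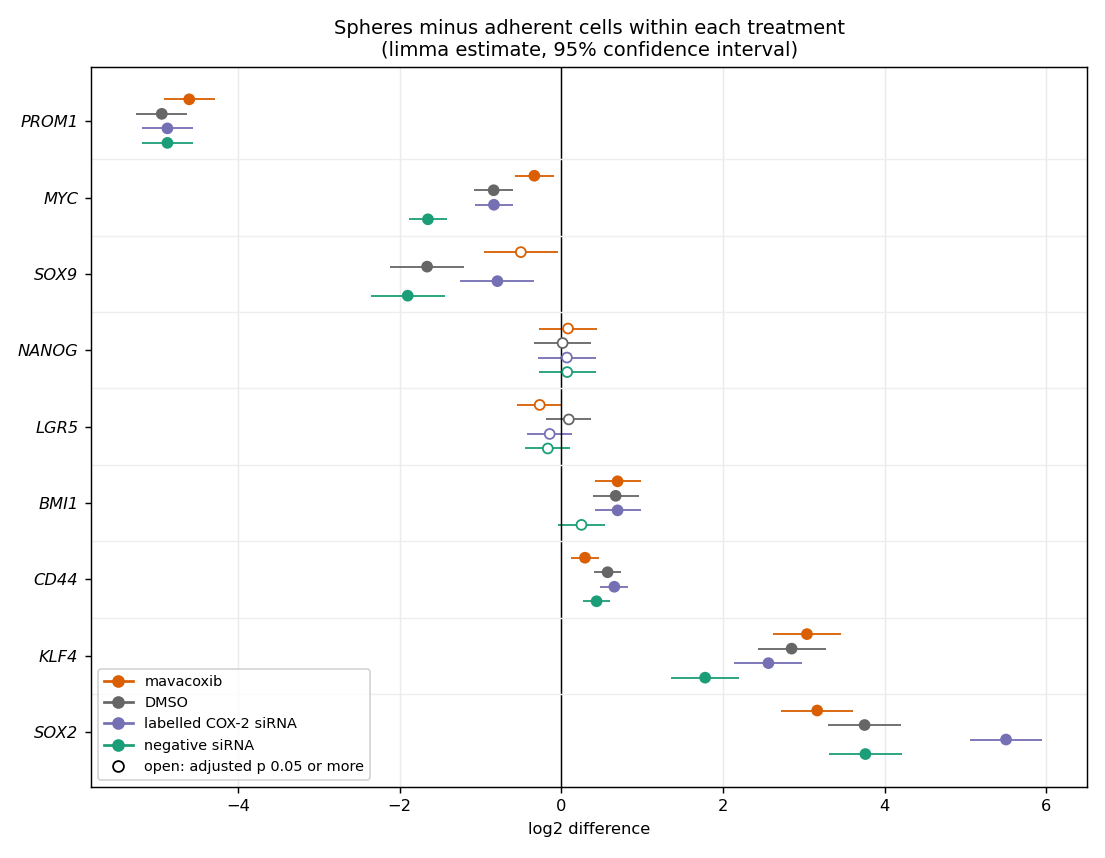
Log2 difference, spheres minus adherent cells, of each measured marker within each of the 4 treatments (points, limma estimate; bars, 95% confidence interval; open points did not pass). SOX2, KLF4 and CD44 lie right of 0 in every treatment, PROM1 lies between -4.94 and -4.60, and SOX9 with mavacoxib (-0.50) is an open point.

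The remaining called markers, SOX9, MYC, BMI1 and CD44, had the following values in the other treatments. SOX9 was lower by 1.90 in spheres with negative siRNA (difference -1.90 ± 0.22) and by 0.79 with labelled COX-2 siRNA (-0.79 ± 0.22, adjusted p = 0.00488). With mavacoxib its difference of -0.50 ± 0.22 did not pass (adjusted p = 0.0695), although the arrays did not overlap. It passed in 5 of 14 alternatives, namely a common median (-0.65), dim genes left out, only its own arrays, trend and robust variance, and array weights (adjusted p between 0.00704 and 0.0449). MYC differed by -1.65 ± 0.11 with negative siRNA, -0.83 ± 0.11 with labelled COX-2 siRNA and -0.33 ± 0.11 with mavacoxib (adjusted p = 0.0195). That last call was lost without adherent mavacoxib array 1 (adjusted p = 0.0539), sphere mavacoxib array 2 (0.0711) or sphere mavacoxib array 3 (0.0517), and with quantile normalization (0.0854). BMI1 rose by 0.70 ± 0.14 with mavacoxib and by 0.70 ± 0.14 with labelled COX-2 siRNA. With negative siRNA BMI1 differed by 0.25 ± 0.14 and did not pass (adjusted p = 0.156), but without sphere negative siRNA array 3 it did (0.38, adjusted p = 0.0377). CD44 rose by 0.44 ± 0.08 with negative siRNA, 0.29 ± 0.08 with mavacoxib and 0.66 ± 0.08 with labelled COX-2 siRNA. Where all arrays were shifted to a common median, the median of all genes moved to -0.22 in DMSO spheres against adherent cells, from -0.03, and the CD44 difference with mavacoxib was 0.14 (adjusted p = 0.246).

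By group mean, PROM1 was lowest in labelled COX-2 siRNA spheres (2.72) and highest in adherent DMSO cells (8.23). Its 4 sphere groups overlapped with their neighbours in that order, while the 4 adherent groups all lay above them. SOX2 was highest in labelled COX-2 siRNA spheres (10.13), then in DMSO spheres (9.06), negative siRNA spheres (8.73) and mavacoxib spheres (8.07), with no overlap between neighbours. The 4 adherent SOX2 groups, with means of 4.62 to 5.31, overlapped with their neighbours. KLF4 was highest in mavacoxib spheres (8.10) and labelled COX-2 siRNA spheres (7.96), which overlapped, and lowest in adherent DMSO cells (4.42). SOX9 was highest in labelled COX-2 siRNA adherent cells (9.66) and lowest in negative siRNA spheres (6.94), and its first 6 groups formed a chain of overlapping neighbours. MYC was highest in adherent negative siRNA cells (8.53), overlapping with adherent labelled COX-2 siRNA cells (8.52), and lowest in negative siRNA spheres (6.88). BMI1 was highest in mavacoxib spheres (9.58), and its first 5 groups overlapped with their neighbours, while adherent DMSO cells (8.52) lay below all others. CD44 was highest in labelled COX-2 siRNA spheres (12.04) and lowest in adherent DMSO cells (11.14), neither overlapping with its neighbour.

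Around each marker, genes of the same family or pathway were read from lists chosen with earlier results of these data known. The genes named from them were picked by smallest adjusted p in these same tests. The counts here are for DMSO spheres against DMSO adherent cells, where all genes passed at 22.8% higher and 23.3% lower. Of 23 stem cell surface markers and transporters, 10 rose and 7 fell (median 0.26). The deepest falls were in the retinaldehyde dehydrogenases ALDH1A1 (-7.93 ± 0.23) and ALDH1A3 (-5.48 ± 0.17), whose activity is used to sort stem-like cells. PROCR, the protein C receptor (2.29 ± 0.12), and the kinase DCLK1 (3.25 ± 0.20) rose. Of 20 genes around CD44 and hyaluronan, 10 rose and 5 fell, among them MMP14, a protease that cleaves CD44 (3.17 ± 0.13), the hyaluronan receptor LYVE1 (2.18 ± 0.18) and EZR, which ties CD44 to actin (-0.70 ± 0.09). Of 31 genes of the LGR5 and Wnt list, 7 rose and 8 fell, close to the share of all genes in each direction. WNT7A, a ligand (3.04 ± 0.20), and ASCL2, a Wnt target in mouse intestinal stem cells (3.29 ± 0.27), rose, while RNF43, a ligase that removes Wnt receptors (-2.53 ± 0.15), and the co-receptor LRP5 (-1.51 ± 0.13) fell.

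The 27 measured genes of the pluripotency network split into 5 that rose and 6 that fell (median -0.13). These counts are near the share of all genes, 22.8% higher and 23.3% lower. TBX3 rose by 3.34 ± 0.30. SALL4 (-3.77 ± 0.20), TFCP2L1 (-2.80 ± 0.17) and KLF5 (-0.91 ± 0.10) fell, SALL4 to a sphere mean of 3.08, under 4.82. In the SOX family 5 of 15 rose, with SOX15 (2.87 ± 0.20) and SOX5 (2.45 ± 0.26) beside SOX2, and 3 fell, with SOX13 (-1.16 ± 0.17) beside SOX9. In the KLF family 4 of 14 rose and 4 fell; KLF14 rose by 1.83 ± 0.21, while KLF6 (-1.25 ± 0.13) and KLF12 (-1.31 ± 0.15) fell. Of 22 polycomb genes 5 rose and 6 fell, again close to the share of all genes in each direction. CBX2, a chromobox subunit of complexes that hold BMI1 (-1.55 ± 0.22), and PCGF5, a relative of BMI1 that takes its place in other complexes of this class (-1.83 ± 0.15), fell. CDKN2A, the locus BMI1 is known to silence, rose in the same spheres as BMI1 (0.94 ± 0.11), as did its neighbour CDKN2B (1.34 ± 0.16).

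MYC target genes leaned the same way as MYC in this comparison: 18 of 37 fell and 5 rose (median -0.29, against -0.03 over all genes). The part of MYC in these differences was not tested. NME1, a nucleoside diphosphate kinase (-1.66 ± 0.10), TFRC, the transferrin receptor (-1.52 ± 0.11), and CDK4 (-0.99 ± 0.14) fell, and NCL, nucleolin (0.94 ± 0.11), rose. Of 12 genes of the MYC dimer network 5 fell, among them MAX, the partner of MYC (-0.94 ± 0.10), and MXD1, which competes with MYC for MAX (-1.70 ± 0.12), and 2 rose. In the Notch list 6 of 17 rose and 2 fell, with DLL1 (2.32 ± 0.21) and JAG1 (1.10 ± 0.13), both ligands, higher and DLL4 (-1.66 ± 0.22), another ligand, lower. In the hedgehog list 3 of 10 rose and 3 fell. The ligand IHH fell by 4.91 (difference -4.91 ± 0.18), while the factors GLI3 (2.98 ± 0.19) and GLI1 (1.50 ± 0.16) and the receptor SMO (1.36 ± 0.20) rose. Markers of epithelial state moved in the same arrays: the mean of the 3 basal genes lay between 10.3 and 10.5 in DMSO spheres, against 3.70 to 4.20 in DMSO adherent cells. The mean of the 6 urothelial genes lay between 6.52 and 6.66 in DMSO spheres, against 10.2 to 10.4 in DMSO adherent cells. Of the 6 epithelial genes limma called 5 lower and 0 higher in this comparison, with KRT18 (-2.24 ± 0.17) among the 5. Within mavacoxib 5 were lower in spheres, and within each siRNA treatment all 6 were. Of the 7 fibroblast genes 3 rose and 0 fell with DMSO, with COL3A1 (2.82 ± 0.23) among the 3. The part of these states in the marker differences was not tested.

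**Figure D3:**
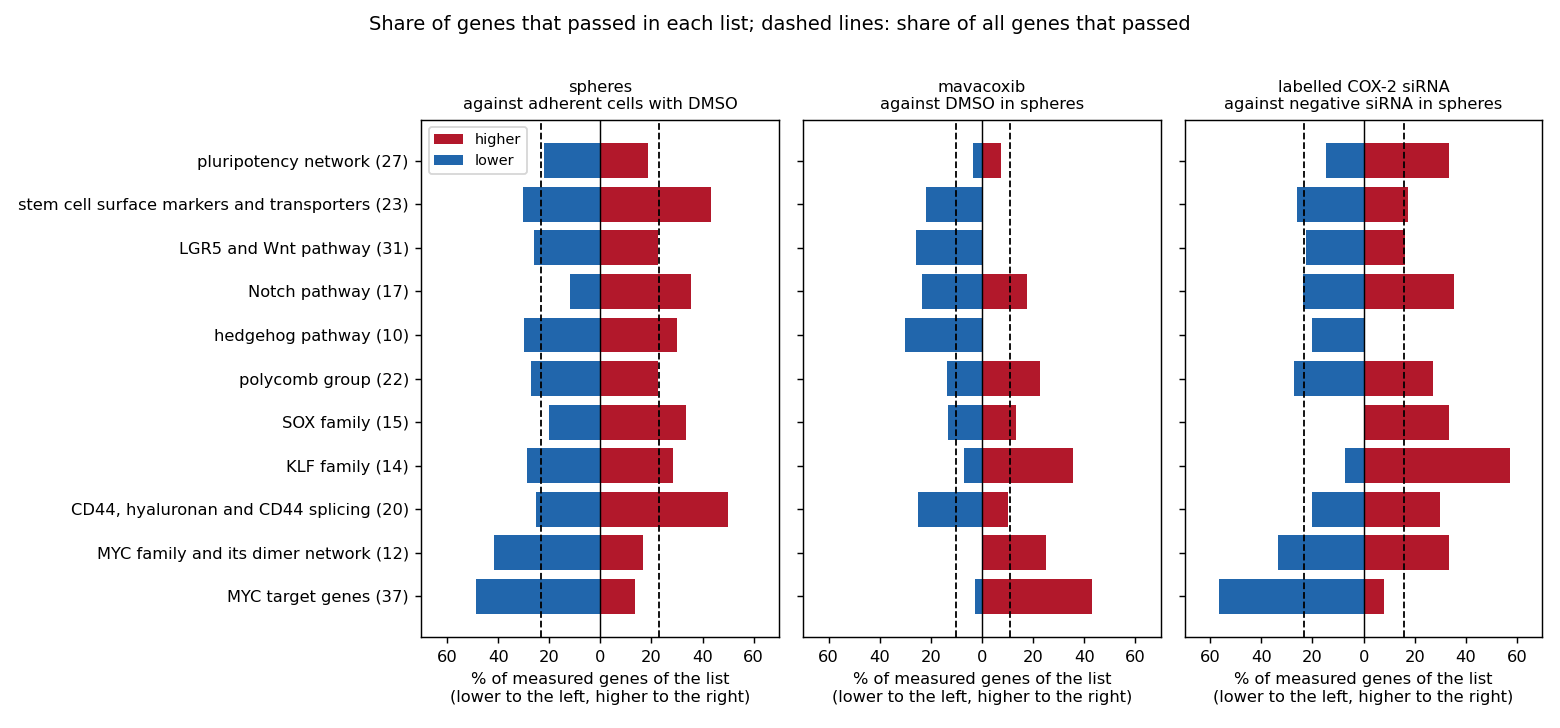
Percent of the measured genes of each list that fell (left of 0) or rose (right of 0) in 3 comparisons, with dashed lines at the share of all genes called in each direction. MYC target genes (37 measured) lean to the left in DMSO spheres against adherent cells and in labelled COX-2 siRNA spheres, and to the right in mavacoxib spheres.

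Mavacoxib changed several markers in spheres. SOX9, KLF4 and BMI1 rose and SOX2 and LGR5 fell, so that 5 of 9 markers passed (55.6%, where 21.4% of all genes did, 11.1% higher and 10.3% lower). In adherent cells limma called 0 of 9 markers, where 4.12% of all genes were called (2.61% higher and 1.5% lower); 4 of the 9 had an unadjusted p under 0.05, and limma with array weights called 5. With quantile normalization 449 of 843 genes called in adherent cells were higher, against 426 of 671 as deposited. The calls for BMI1 and LGR5 were marginal, and those for SOX9, SOX2 and KLF4 held in each of the alternative settings tried.

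SOX9 read 8.88, 9.08 and 9.22 in mavacoxib spheres, against 7.60, 7.65 and 7.28 in DMSO spheres. All mavacoxib arrays were higher, and SOX9 rose by 1.55 ± 0.22 (2.93-fold, adjusted p = 2.31e-05). KLF4 read 7.76, 8.42 and 8.11 in mavacoxib spheres, against 7.21, 7.48 and 7.13 in DMSO spheres, and rose by 0.82 ± 0.20 (1.77-fold, adjusted p = 0.00506). SOX2, far higher in spheres than in adherent cells, read 7.77, 7.97 and 8.47 in mavacoxib spheres, against 9.03, 8.91 and 9.25 in DMSO spheres. The SOX2 groups did not overlap, and SOX2 fell by 0.99 on the log2 scale (SE 0.22, 0.502-fold, adjusted p = 0.00183). Even so the lowest mavacoxib sphere array, 7.77, lay above the highest adherent array, 5.46.

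BMI1 read 9.50, 9.56 and 9.69 in mavacoxib spheres, against 9.23, 9.42 and 8.94 in DMSO spheres, a difference of 0.39 ± 0.14 (adjusted p = 0.0481). The call was lost without mavacoxib sphere array 1, 2 or 3 (adjusted p = 0.0607, 0.0926 and 0.156) or DMSO sphere array 1 or 3 (0.0854 and 0.234), with quantile normalization (0.051) and with only its own arrays (0.155). LGR5 read 2.13, 2.20 and 2.03 in mavacoxib spheres, against 2.41, 2.43 and 2.66 in DMSO spheres, a difference of -0.38 ± 0.13 (adjusted p = 0.0451) between signals that all lie under 4.82. It was lost without any 1 of the 6 arrays (adjusted p between 0.0585 and 0.168), with a common median (0.0981), with trend and robust variance (0.0873) and with only its own arrays (0.119). Of the markers that did not pass in spheres, PROM1 differed by 0.03 (95% confidence interval -0.28 to 0.35), CD44 by -0.05 (-0.22 to 0.12), MYC by 0.21 (-0.03 to 0.45) and NANOG by -0.01 (-0.36 to 0.34).

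In adherent cells KLF4 read 5.31, 4.75 and 5.11 with mavacoxib, against 4.25, 4.10 and 4.92 with DMSO. The difference of 0.63 ± 0.20 did not pass (adjusted p = 0.0847), but without adherent DMSO array 3 it was 0.88 and did (adjusted p = 0.0154). For CD44 (0.23), BMI1 (0.36), MYC (-0.29) and PROM1 (-0.31) the arrays of the adherent groups did not overlap, and the differences did not pass. The adherent SOX9 difference was 0.39 (95% confidence interval -0.07 to 0.85), and the adherent SOX2 difference was -0.41 (-0.85 to 0.04). The test of the difference between the responses of spheres and of adherent cells called 1 of 9 markers, where 10.3% of all genes were called, 4.49% higher and 5.82% lower. That marker was SOX9, whose response was larger in spheres by 1.16 ± 0.31 (adjusted p = 0.0183). Without adherent DMSO array 3 the difference was 0.98 and did not pass (adjusted p = 0.0597). For SOX2 (-0.59 ± 0.30, adjusted p = 0.268) and KLF4 (0.19 ± 0.29, adjusted p = 0.784) a difference between the responses was not shown. For MYC the value was 0.50 ± 0.16, with an adjusted p at the threshold of 0.05 but not under it, and without sphere DMSO array 3 it was 0.58 and passed (adjusted p = 0.023).

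**Figure D4:**
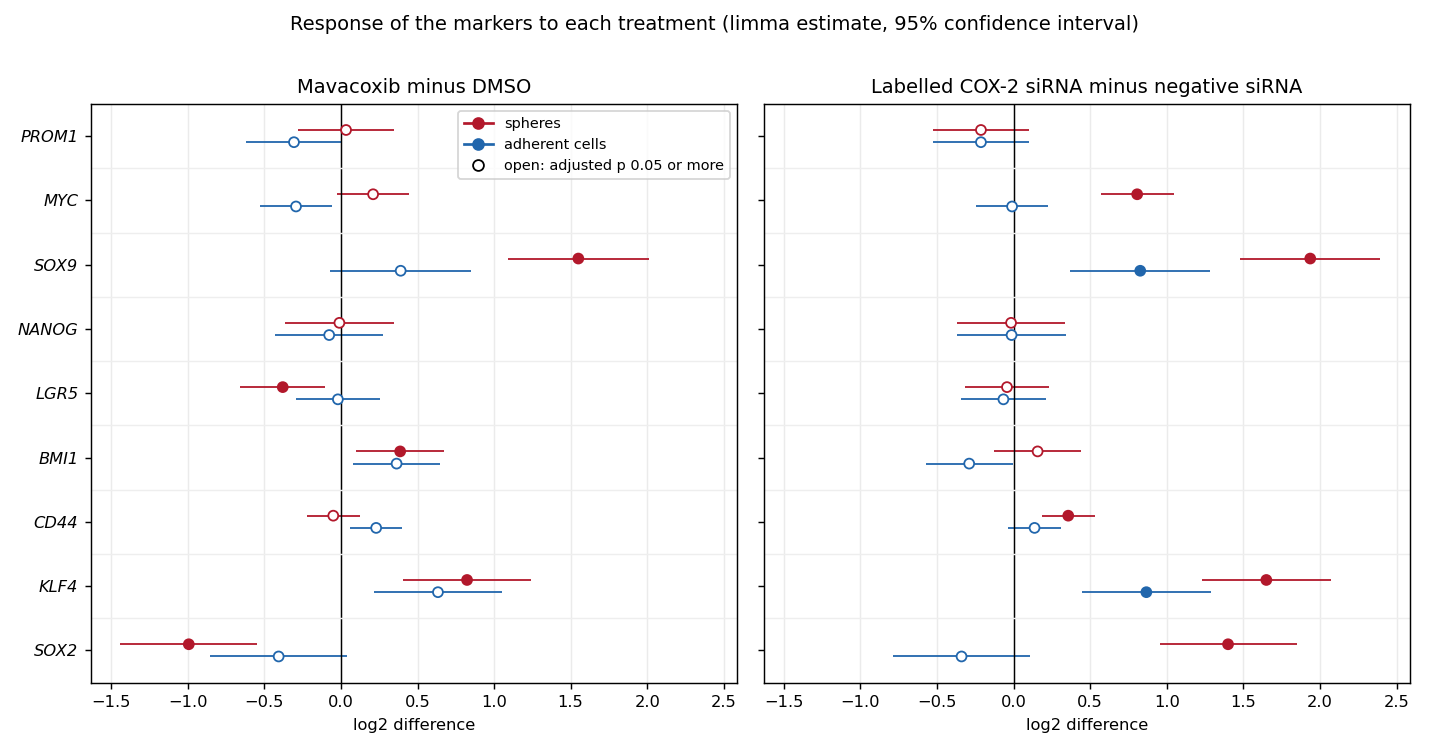
Log2 response of each measured marker to mavacoxib (against DMSO) and to labelled COX-2 siRNA (against negative siRNA), in spheres and in adherent cells (points, limma estimate; bars, 95% confidence interval; open points did not pass). SOX9 rises in spheres in both panels (1.55 and 1.94), and SOX2 lies at -0.99 in the mavacoxib panel and at 1.40 in the siRNA panel.

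Some lists around the markers also moved in mavacoxib spheres, where 11.1% of all genes rose and 10.3% fell. Of 37 MYC target genes 16 rose and 1 fell (median 0.28), although MYC itself did not pass. ODC1, ornithine decarboxylase (1.10 ± 0.10), rose, and PHB, prohibitin, was the 1 that fell (-0.96 ± 0.11). Without mavacoxib sphere array 3 the 16 became 10, and 2 target genes fell without mavacoxib sphere array 1 or without DMSO sphere array 2. MXD1 (1.14 ± 0.12) and MNT (0.57 ± 0.12), both rivals of MYC for MAX, rose, with 3 of 12 dimer network genes higher. Of 31 Wnt genes 8 fell, LGR5 included, and limma called 0 higher (1 at an unadjusted p under 0.05). WNT5A, a ligand of non-canonical signalling, fell by 1.27 (difference -1.27 ± 0.14), and AXIN2, a feedback target of the pathway, by 1.05 (difference -1.05 ± 0.13). The hedgehog receptors PTCH1 (-0.96 ± 0.14) and SMO (-0.77 ± 0.20) were among 3 of 10 genes that fell.

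In the KLF family 5 of 14 rose in mavacoxib spheres, with KLF6 (2.10 ± 0.13) and KLF11 (2.04 ± 0.14) more than KLF4, and 1 fell, a call that was lost without DMSO sphere array 1 or 2 or mavacoxib sphere array 1. Of 27 pluripotency network genes 2 rose, STAT3, a signal transducer (0.56 ± 0.09), beside KLF4, and SOX2 alone fell. Both counts lie below the share of all genes, 11.1% higher and 10.3% lower, and KLF4 and SOX2 are markers already counted above. Without DMSO sphere array 3 there were 2 network genes that fell. In the SOX family 2 of 15 rose and 2 fell, close to the share of all genes in each direction. SOX7 (0.81 ± 0.21) rose beside SOX9, and SOX12 (-1.15 ± 0.21) fell beside SOX2. Of 22 polycomb genes 5 rose, RYBP (1.12 ± 0.09) and EZH2, the methyltransferase of the second polycomb complex (0.86 ± 0.14), among them, and 3 fell; without DMSO sphere array 3 the 5 became 3. Of 23 surface markers limma called 5 lower and 0 higher (0 also at an unadjusted p under 0.05), including ITGA6, an integrin (-0.67 ± 0.12), and NGFR, a neurotrophin receptor (-0.98 ± 0.18). The Notch list held 3 that rose, with DLL1 (2.29 ± 0.21) and HES4 (2.53 ± 0.24), and 4 that fell; with arrays at a common median 4 rose and 3 fell. Without mavacoxib sphere array 3 or DMSO sphere array 1 or 3 only 1 Notch gene fell, and without mavacoxib sphere array 1 there were 2. MMP14 fell by 1.28 (difference -1.28 ± 0.13), against the rise it showed in spheres. Genes of the interferon response moved in the same arrays: 12 of 22 rose and 2 fell in mavacoxib spheres (1 fell without mavacoxib sphere array 1 or 2 or DMSO sphere array 1 or 3), and 8 rose and 1 fell in mavacoxib adherent cells. Of the 6 urothelial genes 3 fell in mavacoxib spheres (0 or 1 without mavacoxib sphere array 1 or 2 or DMSO sphere array 1 or 2, and 1 at a common median), and of the 3 basal genes 1 rose and 1 fell (0 rose without mavacoxib sphere array 1 or DMSO sphere array 2). Their part in the marker differences was not tested.

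In adherent cells few genes of these lists passed with mavacoxib. DKK1, a secreted Wnt inhibitor (1.39 ± 0.29, adjusted p = 0.0063), and HAS2, a hyaluronan synthase (0.51 ± 0.13, adjusted p = 0.0272), rose. CDKN2B (-0.75 ± 0.16, adjusted p = 0.00839) and TFRC (-0.41 ± 0.11, adjusted p = 0.0351) fell. Of the pluripotency, surface marker, MYC dimer, KLF, SOX, Notch and hedgehog lists limma called 0 genes there. At an unadjusted p under 0.05 there were 5, 2, 4, 4, 1, 2 and 2 genes in these lists, in that order.

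In spheres labelled COX-2 siRNA, SOX9, KLF4, SOX2, MYC and CD44 rose against negative siRNA, and limma called 0 markers lower (0 also at an unadjusted p under 0.05), so that 5 of 9 passed (55.6%, where 39% of all genes did, 15.8% higher and 23.3% lower). At a common median 1900 of 6623 called genes were higher in these spheres, against 2567 of 6356 as deposited. In adherent cells KLF4 and SOX9 rose (2 of 9, or 22.2%, where 15% of all genes were called, 6.42% higher and 8.59% lower). PTGS2 was higher in the sphere arrays of this label, as given above. All 22 measured interferon response genes rose as well, with a median of 3.30 in spheres and 3.61 in adherent cells. CXCL10, a chemokine, rose by 7.09 ± 0.19 in spheres, and DDX60, an antiviral helicase, by 5.31 ± 0.15 in spheres and 6.53 ± 0.15 in adherent cells. Epithelial genes moved in the same sphere arrays, 4 of 6 lower and 1 higher (0 higher at a common median; median -0.35), with a mean between 8.96 and 9.01 in labelled COX-2 siRNA spheres, against 9.15 to 9.30 in negative siRNA spheres. Of the 3 basal genes KRT17 (2.05 ± 0.23) and TP63 (0.65 ± 0.18) were higher, with a mean between 9.76 and 9.97 in labelled COX-2 siRNA spheres, against 8.66 to 9.08 in negative siRNA spheres, and all 3 had the higher response in spheres in the test of the difference between responses. Of the 6 urothelial genes GATA3 alone was higher (1.05 ± 0.15); 1 was lower at a common median. In adherent cells 3 urothelial genes and 1 basal gene were lower with labelled COX-2 siRNA (1 urothelial gene without labelled COX-2 siRNA adherent array 3). The part of these genes in the marker differences was not tested.

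SOX9 read 9.16, 8.93 and 8.53 in labelled COX-2 siRNA spheres, against 7.34, 7.08 and 6.39 in negative siRNA spheres, and rose by 1.94 ± 0.22 (3.83-fold, adjusted p = 3.42e-07). KLF4 read 8.25, 7.80 and 7.83 in labelled COX-2 siRNA spheres, against 6.19, 6.17 and 6.57 in negative siRNA spheres, and rose by 1.65 ± 0.20 (3.14-fold, adjusted p = 9.69e-07). Neither gene's groups overlapped, and both genes had been called with mavacoxib in spheres too. SOX2 read 10.17, 10.19 and 10.02 in labelled COX-2 siRNA spheres, against 8.64, 8.72 and 8.82 in negative siRNA spheres, and rose by 1.40 ± 0.22 (2.64-fold, adjusted p = 1.81e-05), whereas it was lower in spheres with mavacoxib. MYC read 8.0, 7.56 and 7.49 in labelled COX-2 siRNA spheres, against 6.86, 6.91 and 6.86 in negative siRNA spheres. It rose by 0.81 ± 0.11 (1.75-fold, adjusted p = 6.69e-06), with array 1 the highest of the group. CD44 read 12.08, 11.99 and 12.06 in labelled COX-2 siRNA spheres, against 11.71, 11.73 and 11.62 in negative siRNA spheres, and rose by 0.36 ± 0.08 (adjusted p = 0.00142). With arrays at a common median the CD44 difference was 0.24 and did not pass (adjusted p = 0.0522). PROM1 (-0.21 ± 0.15, adjusted p = 0.295) and BMI1 (0.16 ± 0.14, adjusted p = 0.407) did not pass in spheres.

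In adherent cells KLF4 read 5.19, 5.47 and 5.53 with labelled COX-2 siRNA, against 4.47, 4.63 and 4.49 with negative siRNA, and rose by 0.87 ± 0.20 (1.82-fold, adjusted p = 0.00531). SOX9 read 9.65, 9.44 and 9.90 with labelled COX-2 siRNA, against 8.83, 9.02 and 8.66 with negative siRNA, and rose by 0.83 ± 0.22 (1.77-fold, adjusted p = 0.0134). Neither pair of groups overlapped. The SOX9 call was lost without labelled COX-2 siRNA adherent array 3 (adjusted p = 0.0656) or negative siRNA adherent array 3 (0.0674). SOX2 differed by -0.34 ± 0.22 in adherent cells and did not pass (adjusted p = 0.327), and without negative siRNA adherent array 2 it fell by 0.64 (adjusted p = 0.0379). MYC differed by -0.01 (95% confidence interval -0.25 to 0.23).

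The test of the difference between the responses of spheres and of adherent cells to the labelled COX-2 siRNA called 3 of 9 markers (33.3%, where 15.3% of all genes were called, 6.74% higher and 8.53% lower), all with the larger response in spheres. At a common median 761 of 2863 genes called in this test were higher, against 1099 of 2489 as deposited. It was 1.74 ± 0.30 for SOX2 (adjusted p = 0.000448), 0.82 ± 0.16 for MYC (adjusted p = 0.00138) and 1.11 ± 0.31 for SOX9 (adjusted p = 0.0185). The SOX9 call was lost without labelled COX-2 siRNA adherent array 2 (1.00, adjusted p = 0.0501) or negative siRNA sphere array 3 (0.84, adjusted p = 0.0534). For KLF4 the difference was 0.78 ± 0.29 (adjusted p = 0.0693), and without negative siRNA sphere array 3 it was 0.91 and passed (adjusted p = 0.0435).

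MYC target genes did not follow MYC in labelled COX-2 siRNA spheres. Of 37, 21 fell and 3 rose (median -0.46, against -0.04 over all genes), while MYC rose. Over all genes 23.3% were lower and 15.8% higher in these spheres. CAD, an enzyme of pyrimidine synthesis, fell by 1.20 (difference -1.20 ± 0.12), whereas ODC1 rose (0.81 ± 0.10). MXD1, the repressor that competes with MYC for MAX, rose by 3.21 ± 0.12 in these spheres and by 0.90 ± 0.12 in labelled COX-2 siRNA adherent cells, and MAX rose by 0.48 ± 0.10 in spheres. In adherent cells 7 target genes fell, with TFRC (-0.77 ± 0.11) and CAD (-0.73 ± 0.12), and 2 rose, where 8.59% of all genes fell and 6.42% rose. Only 1 target gene rose without labelled COX-2 siRNA adherent array 1 or 2 or negative siRNA adherent array 1 or 3. In the MYC dimer network 4 of 12 rose and 4 fell in spheres, and 2 fell without labelled COX-2 siRNA sphere array 1 or 3 or negative siRNA sphere array 3. The part of MYC, MXD1 or MAX in the target gene differences was not tested.

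The list counts that follow are for labelled COX-2 siRNA spheres, where 15.8% of all genes rose and 23.3% fell. In the KLF family 8 of 14 rose and 1 fell, with KLF10 (1.42 ± 0.13) and KLF7 (1.11 ± 0.11) beside KLF4; 2 fell without labelled COX-2 siRNA sphere array 1 or 3, and 3 without negative siRNA sphere array 1. In the SOX family limma called 5 of 15 higher and 0 lower (0 also at an unadjusted p under 0.05). The 5 include the markers SOX2 and SOX9, already given above. SOX3 (0.88 ± 0.31) and SOX30 (0.52 ± 0.17) were also among them, both with sphere means under 4.82. Those 5 became 3 without labelled COX-2 siRNA sphere array 2 and 2 without negative siRNA sphere array 2. Of 20 genes around CD44 and hyaluronan 6 rose and 4 fell, and with arrays at a common median 3 rose and 6 fell. HAS2 rose by 3.40 ± 0.13 and LYVE1 by 2.12 ± 0.18. Of 27 pluripotency network genes 9 rose and 4 fell, with IL6ST, the shared receptor of the LIF family (1.38 ± 0.11), and STAT3, its signal transducer (1.13 ± 0.09), higher; 2 fell without labelled COX-2 siRNA sphere array 3 or negative siRNA sphere array 3. AXIN2 rose by 1.14 ± 0.13 and CTNNB1, the gene of beta-catenin, by 0.70 ± 0.10, in a Wnt list with 5 higher and 7 lower of 31, close to the share of all genes in each direction. Without any 1 of the 6 arrays except labelled COX-2 siRNA sphere array 3, 3 of the Wnt genes rose. JAG1 (1.59 ± 0.13) and RBPJ, the DNA-binding factor of the Notch pathway (1.23 ± 0.13), rose among 6 Notch genes higher and 4 lower; 2 were lower without labelled COX-2 siRNA sphere array 3 or negative siRNA sphere array 3. GLI3 (-1.08 ± 0.19) and GLI1 (-0.61 ± 0.16) were the 2 of 10 hedgehog genes that fell, close to the share of all genes. ALCAM, an adhesion molecule of the surface list, rose by 1.70 ± 0.10, and NT5E, an ecto-nucleotidase, fell by 1.54 (difference -1.54 ± 0.21).

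The control groups were themselves compared, since mavacoxib and the siRNA have different controls. In adherent cells MYC and BMI1 rose with negative siRNA against DMSO (2 of 9 markers, or 22.2%, where 13.9% of all genes were called, 8.74% higher and 5.11% lower). With quantile normalization 1342 of 2562 called genes were higher, against 1424 of 2257 as deposited. MYC read 8.60, 8.54 and 8.44 with negative siRNA, against 8.01, 8.0 and 7.93 with DMSO, and rose by 0.55 ± 0.11 (adjusted p = 0.0026). BMI1 read 9.09, 9.31 and 9.07 with negative siRNA, against 8.55, 8.57 and 8.45 with DMSO, and rose by 0.63 ± 0.14 (adjusted p = 0.00349). Neither gene's groups overlapped.

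In spheres KLF4 and SOX9 fell with negative siRNA against DMSO (2 of 9 markers, where 35.3% of all genes were called, 19% higher and 16.4% lower). KLF4 read 6.19, 6.17 and 6.57 with negative siRNA, against 7.21, 7.48 and 7.13 with DMSO, a difference of -0.96 ± 0.20 (adjusted p = 0.000596) with no overlap. SOX9 read 7.34, 7.08 and 6.39, against 7.60, 7.65 and 7.28, and the groups overlapped; the difference was -0.57 ± 0.22 (adjusted p = 0.0474). That call was lost without negative siRNA sphere array 2 or 3 (adjusted p = 0.055 and 0.33) or DMSO sphere array 1 or 2 (0.122 and 0.142), with a common median (0.107) and with only its own arrays (0.105). Interferon response genes moved in these spheres too, with 14 of 22 higher and 4 lower. All 3 basal genes were lower (median -1.27), and their mean lay between 8.66 and 9.08 in negative siRNA spheres, against 10.3 to 10.5 in DMSO spheres. Of the 6 urothelial genes 3 were lower (median -0.44; 1 without DMSO sphere array 1), with a mean between 6.11 and 6.22 in negative siRNA spheres, against 6.52 to 6.66 in DMSO spheres. The part of these genes in the marker differences was not tested. PTGS2 itself differed between the controls, lower with negative siRNA in spheres (-1.80 ± 0.13, adjusted p = 2.98e-10) and higher in adherent cells (1.39 ± 0.13, adjusted p = 9.07e-07). PROM1 (-0.35 ± 0.15) did not pass, but without DMSO sphere array 3 it fell by 0.52 (adjusted p = 0.00852). All PROM1 sphere signals lie under 4.82 and may be background. The sphere difference with negative siRNA was lower than that with DMSO for KLF4 (-1.07 ± 0.29, adjusted p = 0.0109) and MYC (-0.81 ± 0.16, adjusted p = 0.000891), the 2 of 9 markers called where 17.1% of all genes were, 7.77% higher and 9.29% lower. KLF4 rose less in spheres with negative siRNA (1.78) than with DMSO (2.85), while MYC fell further (-1.65, against -0.84). All 3 basal genes were lower in that test too (median -1.33; 2 at a common median). For BMI1 that difference was -0.42 ± 0.19 (adjusted p = 0.155), and without DMSO sphere array 3 it was -0.55 and passed (adjusted p = 0.0486).

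The pattern of each marker whose 8 group means spanned at least 1 on the log2 scale was set against all other genes by Pearson correlation over the 24 arrays, which share culture form and treatment, so that the values are descriptions. For PROM1 the most alike genes were ENPP5 (0.997), UPK1A, a uroplakin of the urothelial surface (0.995), and CTSE, cathepsin E (0.994). For SOX2 they were ADAMTS1, a secreted protease (0.983), INHBA, the activin A subunit (0.979), and SLC6A17 (0.979). For KLF4 they were MDK, the growth factor midkine (0.968), FAM83G (0.967) and VPS50 (0.964). SOX9 was most like ATF2, a leucine zipper factor (0.946), RIPK1, a kinase of death receptor signalling (0.933), and SDF2L1 (0.92). MYC was most like TSR1, a ribosome assembly factor (0.937), FHOD1 (0.925) and ZFP36L2 (0.922), and BMI1 was most like POLR1F, an RNA polymerase I subunit (0.906), ALKBH1 (0.901) and TBP (0.897).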

How the data were processed

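The deposited table holds log2 signals, 1 per feature and array, made by the authors with Affymetrix Expression Console 1.1, per the submitters' processing notes; how it summarised and normalized them is not given in the sources used here. Of 27766 features, 16878 had 1 gene symbol in the platform annotation, 289 several and 10599 none, and symbols were used as given. The brightest feature by mean over the 24 arrays stood for a gene, and all 16295 genes were tested whatever their intensity. No sequences are shown, as none were used here.

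With limma 3.58.1 (R 4.3.3) 1 linear model with a mean for each of 8 groups was fitted over every array (lmFit, contrasts.fit and eBayes, with 16 residual and 5.54 prior degrees of freedom) for 13 comparisons, with two-sided tests and Benjamini-Hochberg adjustment over all genes of a comparison. The number of arrays limits the precision. On simulated data of this design, for mavacoxib in adherent cells, changes of 0.5, 1 and 2 were recovered in 25.4%, 80.6% and 100% of genes, and in 7.46%, 56.7% and 93.9% for the difference between mavacoxib responses. The simulation changed only 67, 67 and 66 of 16295 genes by these sizes, with independent noise around the adherent DMSO means. It gave 144 and 112 calls, where the data gave 671 and 1680. Recovery depends on how many genes change, so these rates do not describe the tests on the data.

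The members and lists were chosen with earlier results of these data known. Of 311 genes in 18 lists, 276 were measured. Named are all markers, PTGS2, the markers of cell types, of each other list up to 4 genes with the smallest adjusted p in DMSO spheres against adherent cells and up to 2 in each treatment comparison, and the 3 genes most alike to a marker. Alternatives were quantile normalization, arrays shifted to a common median, array weights, dim genes left out, averaged features, a fit on each comparison's own arrays, robust and trended variance, a replicate block, and leaving out each array.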

Additional observations from a re-analysis of the deposited data

Results flagged for a closer look

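In 6 cases the response or culture difference of a marker differed between groups by a direct test of that difference (limma, adjusted over all genes). The response of SOX9 to mavacoxib was larger in spheres than in adherent cells by 1.16 ± 0.31 (SE, adjusted p = 0.0183). It was the 1 of 9 markers called (11.1%), close to the 10.3% of all genes, and was lost without adherent DMSO array 3. The response to the labelled COX-2 siRNA was larger in spheres for SOX2 by 1.74 ± 0.30 (adjusted p = 0.000448), for MYC by 0.82 ± 0.16 (adjusted p = 0.00138) and for SOX9 by 1.11 ± 0.31 (adjusted p = 0.0185). These were 3 of 9 markers, where 15.3% of all genes were called. The SOX9 call was lost without labelled COX-2 siRNA adherent array 2 or negative siRNA sphere array 3. The difference between spheres and adherent cells was lower with negative siRNA than with DMSO for KLF4 (-1.07 ± 0.29, adjusted p = 0.0109) and for MYC (-0.81 ± 0.16, adjusted p = 0.000891). For KLF4 the rise in spheres was smaller (1.78, against 2.85 with DMSO), and for MYC the fall was larger (-1.65, against -0.84). These were 2 of 9 markers, where 17.1% of all genes were called. The drug response and the siRNA response rest on different controls and times, and the difference between those responses was not tested.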

How the results depend on the processing

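NANOG and LGR5, whose signals were all under 4.82, are left out of these counts and of the sign turns, except LGR5 in mavacoxib spheres. Of the remaining 92 pairs of a marker and a comparison, 48 were called; 39 of these calls were kept in every alternative run, 9 were lost in some, and 0 changed sign. Of the 44 not called, 18 passed in at least 1 alternative, among them MYC in the difference between mavacoxib responses (6 of 20), SOX9 in mavacoxib spheres against adherent cells (5 of 14) and KLF4 in the difference between siRNA responses (5 of 20). The lost calls are given with their values above. The number of markers called moved by more than 1.5 times as follows, and the causes were not tested except where fewer arrays or genes entered. For the difference between mavacoxib responses (1 as reported) it was 3 with quantile normalization, 3 with trend and robust variance, 3 with array weights, 2 with dim genes left out and 2 with the mean of features. For the difference between siRNA responses (3) it was 5 with quantile normalization. For negative siRNA against DMSO in spheres (2) it was 1 with a common median, 4 with dim genes left out, 1 with only its own arrays and 5 with array weights. For mavacoxib in adherent cells (0) it was 1 with dim genes left out, 1 with trend and robust variance and 5 with array weights, and in spheres (5) it was 3 with only its own arrays. Leaving out each array in turn gave 0 to 1 for mavacoxib in adherent cells, 3 to 4 in spheres, 1 to 3 for the labelled COX-2 siRNA in adherent cells, 1 to 3 for negative siRNA against DMSO in spheres, and 0 to 2 for the difference between mavacoxib responses.

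With the replicate number as a block, negative siRNA against DMSO in spheres called 1 marker in place of 2, since SOX9 (-0.57) had an adjusted p of 0.056, and the block changed no other call of a marker. Correlations of the deviations of same-numbered arrays ran from -0.171 to 0.266, and 9 of 30 were over 0.1. Arrays with different numbers were not compared in this way, so whether the numbers pair the samples is not settled.

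Differences near 0 that were never called turned sign. For the sphere difference with negative siRNA minus that with DMSO, SOX2 was -0.069 with quantile normalization and -0.29 to 0.20 with single arrays left out, PROM1 was -0.032 with array weights and -0.11 to 0.24 with single arrays left out, and SOX9 was -0.44 to 0.033. For negative siRNA against DMSO, CD44 in spheres was 0.043 with a common median, 0.040 with array weights and -0.045 to 0.01 with single arrays left out, and KLF4 in adherent cells was -0.055 to 0.36. With single arrays left out, the difference between mavacoxib responses was -0.058 to 0.36 for KLF4 and -0.11 to 0.14 for BMI1, PROM1 in mavacoxib spheres was -0.14 to 0.21, and MYC with labelled COX-2 siRNA in adherent cells was -0.053 to 0.027.

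Over all genes, array weights gave more calls: 2472 against 671 for mavacoxib in adherent cells and 5535 against 3491 in spheres, 4337 against 2257 for negative siRNA over DMSO in adherent cells and 9185 against 5758 in spheres, and for the differences between effects 3950 against 1680 (mavacoxib), 5445 against 2489 (siRNA) and 5642 against 2779 (controls). Mavacoxib in adherent cells had 1034 with dim genes left out. Leaving out 1 of its 6 arrays gave 344 to 500: 344 and 427 for DMSO arrays 1 and 2, 500 for DMSO array 3, and 394, 421 and 414 for mavacoxib arrays 1, 2 and 3. In spheres it had 1904 with only its own arrays. In adherent cells the labelled COX-2 siRNA had 1566, against 2445, without negative siRNA array 3, and negative siRNA over DMSO had 1427 without DMSO array 2 and 1435 and 1444 without negative siRNA array 2 and 3. A common median moved the median of all genes by over 0.1 in the 4 comparisons of spheres with adherent cells, to between -0.20 and -0.30, for the labelled COX-2 siRNA in spheres (to -0.15) and for the difference between siRNA responses (to -0.14). LGR5 was also called lower in mavacoxib spheres against adherent cells with a common median or array weights, in labelled COX-2 siRNA spheres against adherent cells with a common median, and for negative siRNA against DMSO in spheres with array weights. Without detection calls, NANOG and LGR5 cannot be told from background.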

Other observations

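The Notch list split by control. In spheres against adherent cells 6 of 17 Notch genes rose and 2 fell with DMSO, while 1 rose and 6 fell with negative siRNA (2 and 5 without adherent negative siRNA array 1). Over all genes 22.8% were higher and 23.3% lower with DMSO, and 20.5% higher and 22.1% lower with negative siRNA. The test of the difference between these sphere differences called 1 gene higher and 5 lower with negative siRNA, where 7.77% of all genes were higher and 9.29% lower. Among the surface markers and transporters 1 of 23 was higher and 8 were lower in that same test (2 and 7 without DMSO sphere array 3).

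MYC target genes rose with negative siRNA against DMSO in both culture forms, 22 of 37 in spheres with 2 lower and 20 of 37 in adherent cells with 1 lower, while MYC rose in adherent cells and did not pass in spheres (-0.27 ± 0.11, adjusted p = 0.0762; it passed with quantile normalization and with dim genes left out). Over all genes 19% were higher and 16.4% lower in spheres, and 8.74% higher and 5.11% lower in adherent cells. In adherent cells the 20 became 13 without DMSO array 1. Transfection, siRNA, time and, for spheres, attachment at seeding differ between these controls and cannot be told apart. The Notch and surface marker counts above rest on the same controls.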
